A study of Bos taurus with 8 samples.

Results

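The insulin-like growth factor (IGF) system and the AKT kinases were followed in bovine granulosa cells through 9 genes. They comprised the ligand IGF2, the receptors IGF2R and IGF1R, the binding proteins IGFBP2, IGFBP4 and IGFBP5, the kinases AKT1 and AKT2, and the transcription factor FOXO1. Members were chosen by gene symbol; the rule holds no measured value, but the genes were picked with earlier results of these data known. They were 9 of 15216 gene symbols, and 12 of the 43794 probes of the array carried one of these symbols. Of the 12 probes, 7 passed the filter on dim signal, 1 each for IGF2, IGF2R, IGF1R, IGFBP4, AKT1, AKT2 and FOXO1. The other 5 did not: 2 more IGF2 probes, another AKT2 probe, and the only probes of IGFBP2 and IGFBP5.

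IGF2 and its relative IGF1 act through IGF1R, a receptor tyrosine kinase that recruits PI3-kinase and activates AKT, which phosphorylates FOXO1 and holds it outside the nucleus. IGF2R, also known as the cation-independent mannose 6-phosphate receptor, takes up IGF2 for degradation and sorts newly made enzymes to lysosomes. Binding proteins hold the ligands in follicular fluid, and in cattle the IGF system acts together with FSH on the growth and oestradiol output of granulosa cells, while much of the follicle's IGF2 is made by theca cells. The arrays measured transcripts, so that phosphorylation of AKT or FOXO1 was outside their reach.

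The study used 4 Holstein heifers, each sampled at 8, 11 and 14 months, the ages around puberty, and set the younger ages against 14 months of the same animal. On 4 dual-colour arrays a heifer's RNA from 8 months was set against its RNA from 14 months, and on 4 further arrays RNA from 11 months took that place. At every age the animals had received progesterone from an intravaginal device, aspiration of the dominant follicle 36 h before stimulation and 6 injections of 30 mg FSH spaced 12 h apart, and follicles were punctured 43 h after the last injection, per the labels' protocols. All groups therefore hold stimulated follicles, and no unstimulated cells are among them. RNA came from pools, of which the labels say no more, and passed through linear amplification in repeated rounds. Younger RNA was labelled with Cy5 for heifers 1 and 2, but with Cy3 for heifers 3 and 4, so the dye orientation is tied to the animal. A heifer's 14-month RNA was read on both of its arrays, always in the same dye, and both comparisons share it. Every label names granulosa cells, whereas the design text of the series describes 10 animals and expression at the blastocyst stage, and this conflict bears on all values.

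The median probe had an intensity of 220 to 329, depending on array and dye. Background was taken to end 2 SD over the mean negative control, at 217.8 to 349.5, and 43.3% to 57.3% of probes were above it. Granulosa markers were present: FSHR, the FSH receptor, CYP19A1, the aromatase, and INHA, an inhibin subunit, were above background in 16 of 16 channels, and FOXL2 in 7. All 14 granulosa markers with a probe were kept, and their median log2 change was -0.19 at 8 months and -0.29 at 11 months against 14 months. In RNA of pooled cells, fewer cells of a type and less RNA per cell cannot be told apart. Markers of other epithelia stood high on some arrays. Over all kept probes at 8 against 14 months, 50.4% of fitted changes lay above 0 and 3.24% were called as rises. The median log2 ratio of 9 general epithelium markers at 8 months was 2.30, 1.90, 1.65 and 1.05 in heifers 1 to 4, with 9 of 9 fitted changes above 0 and 3 called. Their summed level ran from 96900 to 191000 at 8 months and from 37900 to 106000 at 14 months. The median log2 ratio of 14 squamous markers at 8 months was 3.03, 0.62, 1.81 and 2.53 in heifers 1 to 4, and 9 of the 14 rose. That of 12 cilia markers was 2.88, 3.75, -0.03 and 0.07 at 8 months and 1.42, 0.00, 0.01 and 3.26 at 11 months. The summed level of the squamous markers ran from 26000 to 159000 at 8 months and from 6060 to 15300 at 14 months, and that of the cilia markers from 2770 to 146000 and from 2540 to 8830.

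IGF2R and AKT2 were higher at 8 than at 14 months in all 4 heifers, in both dye orientations, and were the members that passed the test. IGF2R, probe EMBV3_42725, had a median pixel intensity of 5755, 3421, 6872 and 5614 at 8 months in heifers 1 to 4. On the same arrays the 14-month RNA gave 662, 901, 662 and 574. The log2 ratios after normalization were 3.14, 1.88, 3.08 and 3.12. All 4 heifers were therefore high at 8 months, heifer 2 less so than the rest. The fitted log2 change was 2.80 ± 0.62 (SD, n = 4; SE 0.33; 95% interval 2.04 to 3.56), a rise of 6.99-fold with an adjusted p of 0.00901 from limma. Repeat readings of the same 14-month RNA differed for this probe by a median of 0.21 on the log2 scale, and by at most 0.52.

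AKT2 encodes the AKT isoform best known for insulin-dependent glucose uptake. Its bright probe, EMBV3_32682, gave 20110, 16370, 19100 and 17350 at 8 months and 4340, 3300, 4915 and 4683 at 14 months on the same arrays. The log2 ratios were 2.16, 2.31, 1.63 and 1.68. The 8-month values were close to each other, with a difference of 0.35 between the highest and lowest log2 level. The fitted change was 1.94 ± 0.34 (SD, n = 4; SE 0.30; 95% interval 1.25 to 2.63), a rise of 3.84-fold with an adjusted p of 0.0177. The second AKT2 probe was above background in 0 of 16 channels. Its ratios had the sign of the bright probe's in 2 of 8 arrays, so AKT2 rests on 1 probe.

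At 8 against 14 months, 2 of 7 kept members were called, both rises, beside 871 of all 22692 kept probes, or 3.84% (3.24% for rises alone). Ratios above 0 in 4 of 4 heifers, which IGF2R and AKT2 showed, occurred in 15.7% of probes. The members' median log2 change was 0.12, and that of all probes was 0. Both rises lost the test when heifer 3 was left out (adjusted p of 0.161 for IGF2R and 0.203 for AKT2) and when heifer 4 was left out (0.0738 and 0.0768), while the changes stayed between 1.76 and 2.64. Without heifer 3, 0 probes of the whole array were called, and without heifer 4, 37.

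**Figure D1:**
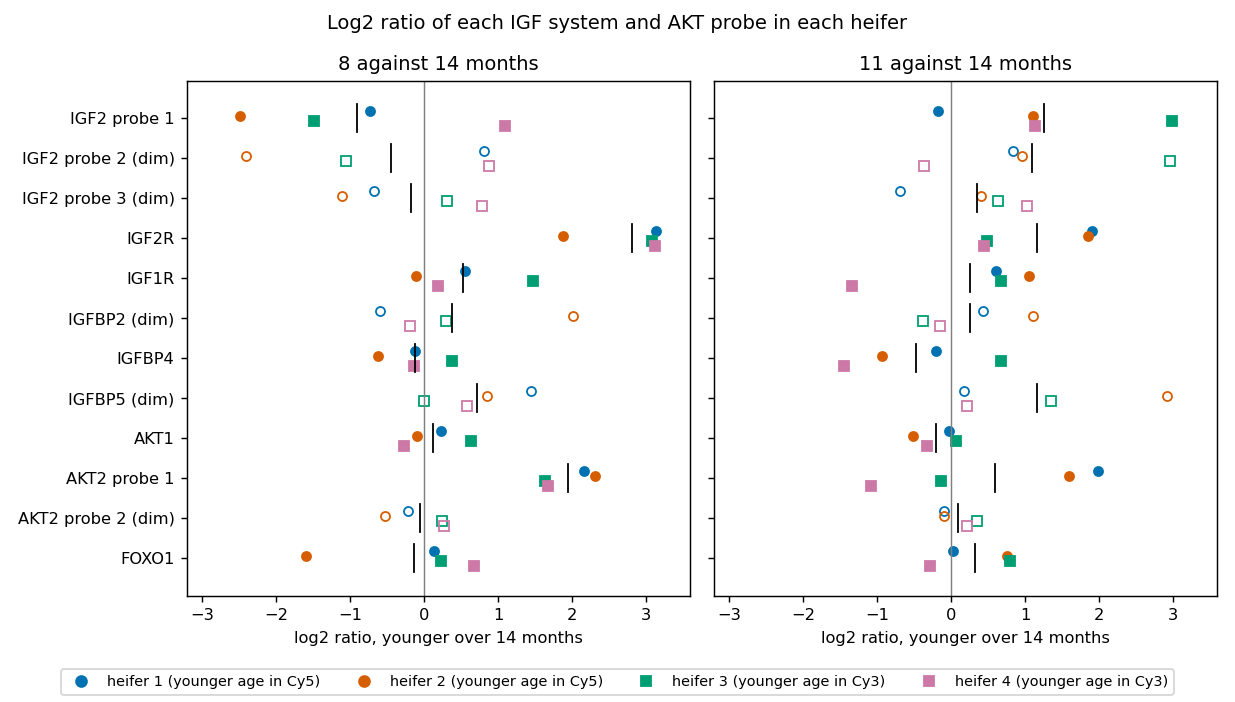
Log2 ratio (younger age over 14 months, x axis) of each of the 12 probes in each heifer, with 8 months on the left and 11 months on the right. Circles mark heifers with the younger age in Cy5 and squares those with it in Cy3, open symbols are probes that did not pass the filter, and black bars are means over 4 heifers. At 8 months the IGF2R points lie between 1.88 and 3.14 and the AKT2 points between 1.63 and 2.31, and at 11 months both genes split into heifers 1 and 2 above heifers 3 and 4.

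At 11 against 14 months none of the 22692 probes was called by limma (0%; 1702 probes, or 7.5%, had an unadjusted p under 0.05), and 2 of the 7 members, IGF2R and IGF2, were among those with an unadjusted p under 0.05. IGF2R had log2 ratios of 1.90 and 1.85 in heifers 1 and 2 and of 0.48 and 0.44 in heifers 3 and 4, with a fitted change of 1.17 ± 0.82 (SD, n = 4; adjusted p = 0.661). Its ratio was above 0 in all 4 heifers, as in 6.35% of probes, while 6.69% were below 0 in all 4. AKT2 split along the same animals, with 1.99 and 1.60 in heifers 1 and 2 and -0.13 and -1.08 in heifers 3 and 4 (fitted change 0.59 ± 1.45; adjusted p = 0.662). The means of the heifers with the younger age in Cy5 and in Cy3 were 1.88 and 0.46 for IGF2R and 1.79 and -0.60 for AKT2. Animal and dye orientation cannot be told apart here. The corresponding means at 8 months were 2.51 and 3.10 for IGF2R and 2.23 and 1.65 for AKT2. The fitted dye term, shared by both comparisons, was 0.21 for IGF2R and 0.74 for AKT2, and the part of the dye in the split was not tested.

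The levels per channel show the same split. IGF2R had a log2 level of 12.65, 11.43, 12.73 and 12.58 at 8 months, of 11.58, 11.63, 9.94 and 9.37 at 11 months, and of 9.60, 9.66, 9.55 and 9.19 at 14 months. AKT2 had 14.33, 13.98, 14.00 and 14.02 at 8 months, 14.25, 13.65, 11.96 and 11.56 at 11 months, and 12.22, 11.86, 12.23 and 12.49 at 14 months. At 11 months AKT2 in heifers 1 and 2 thus lay 0.08 and 0.33 under their own 8-month level, and in heifers 3 and 4 it lay below their 14-month level. The spread over heifers at 11 months was 2.69 for AKT2, against 0.35 at 8 months and 0.63 at 14 months, and the median spread of all kept probes was 0.88 at 11 months.

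**Figure D2:**
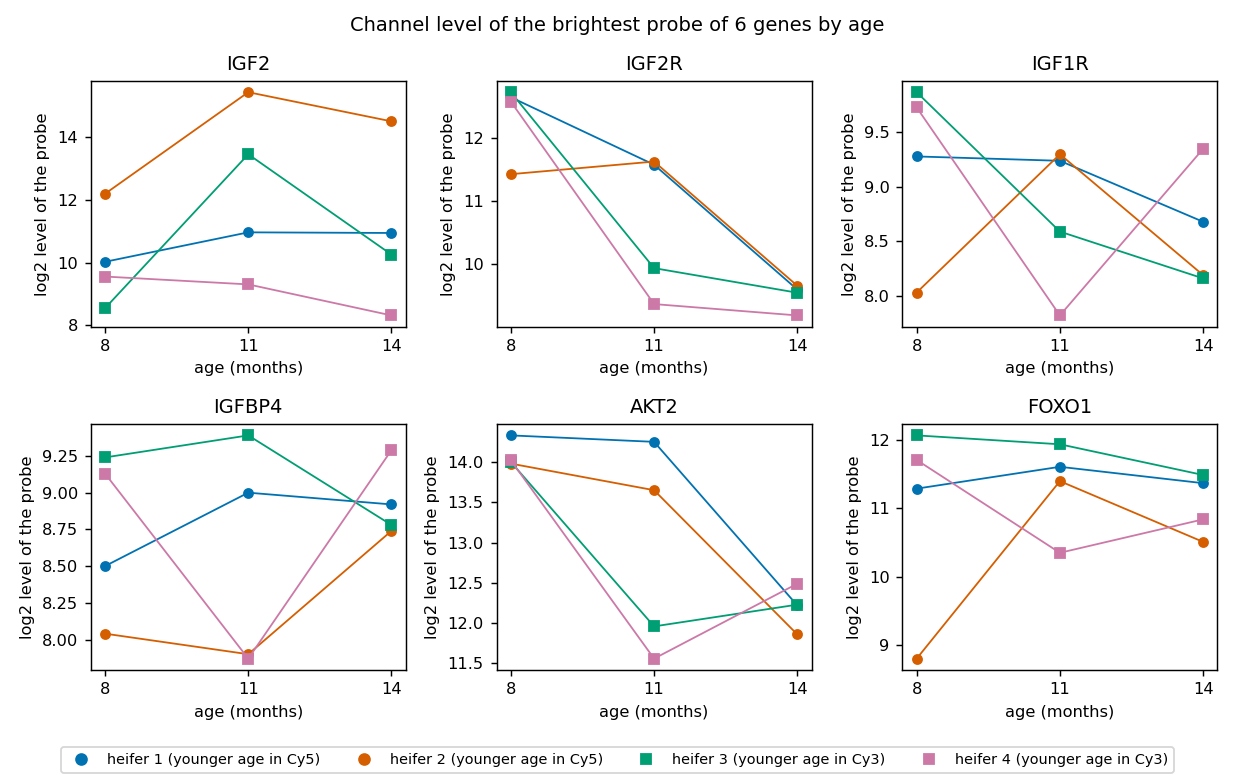
Log2 level of the brightest probe of 6 genes (y axis, own scale per panel, not starting at 0) by age in months, 1 line per heifer, where the 14-month point is the mean of 2 readings. IGF2R and AKT2 are highest at 8 months except IGF2R in heifer 2 (11.43 at 8 and 11.63 at 11 months), heifers 1 and 2 stand above heifers 3 and 4 at 11 months, and IGF2 lies apart between heifers at all 3 ages.

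Set against each other through the shared 14-month RNA, 8 and 11 months gave 0 calls by limma among 22692 probes (0%; 1209, or 5.33%, at an unadjusted p under 0.05, 3 of the 7 members among them). IGF2R was higher at 8 than at 11 months by 1.24, 0.02, 2.60 and 2.69 in heifers 1 to 4 (fitted difference 1.64, adjusted p = 0.727), by the ratios to 14 months. By the levels per channel heifer 2 had the opposite sign, 0.21 higher at 11 months, so its direction depends on the route. AKT2 was higher by 0.17, 0.71, 1.75 and 2.76 (1.35, adjusted p = 0.753). By the ratios, differences above 0 in 4 of 4 heifers, which AKT1 had too, occurred in 8.27% of probes. The larger changes at 8 than at 11 months were thus not told from 0, and the ages compared lie on different arrays.

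IGF2, the ligand, stood far apart between animals at every age. Its bright probe, EMBV3_37311, had a log2 level of 10.03, 12.20, 8.55 and 9.56 at 8 months, of 10.97, 15.44, 13.46 and 9.31 at 11 months, and of 10.95, 14.51, 10.26 and 8.32 at 14 months. Heifer 2 was the highest at every age. At 14 months the highest and lowest heifer were 6.19 apart on the log2 scale, or 73.0-fold, and 1 of 22540 probes had a wider spread. At 11 months they were 70.3-fold apart, with 7 of 22625 probes wider, and at 8 months 12.5-fold. Repeat readings of the 14-month RNA differed by at most 0.43 for this probe. Heifers 1 and 2 were read in the other dye than heifers 3 and 4 at each age, so the highest and lowest heifer differed in dye at every age. Within a dye, heifer 2 minus heifer 1 was 2.17, 4.47 and 3.55 at 8, 11 and 14 months. Heifer 4 minus heifer 3 was 1.01, -4.15 and -1.94. The fitted dye term of this probe was -0.75, and the part of the dye in the spread was not tested.

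The IGF2 ratios had no common direction. At 8 against 14 months they were -0.73, -2.49, -1.49 and 1.10 (fitted change -0.90 ± 1.52; SD, n = 4; adjusted p = 0.319), lower in 3 heifers and higher in 1. At 11 against 14 months they were -0.18, 1.11, 2.98 and 1.13 (1.26 ± 1.30; adjusted p = 0.661). By the ratios to the shared 14-month RNA, IGF2 was lower at 8 than at 11 months in all 4 heifers, with differences of -0.55, -3.60, -4.47 and -0.03, as in 5.04% of probes, and the fitted difference of -2.16 did not pass (adjusted p = 0.770). Heifers 2 and 3 carry that difference, and heifers 1 and 4 were close to 0. By the levels per channel heifer 4 had the opposite sign, with 9.56 at 8 and 9.31 at 11 months, so the common direction depends on the route.

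The other IGF2 probes were dim. The second, EMBV3_41040, was above background in 8 of 16 channels and had log2 levels of 11.74 and 10.73 at 11 months in heifers 2 and 3, the same animals that were highest with the bright probe, and of 7.58 and 6.49 in heifers 1 and 4. At 14 months it had 10.53 in heifer 2 and 6.76 to 7.65 in the others. Over 8 arrays its ratios had the sign of the bright probe's in 5, and the correlation of both was 0.856, as a description. EMBV3_16283, the remaining probe, was above background in 0 of 16 channels. RefSeq lists 8 IGF2 transcripts on the ARS-UCD2.0 assembly, between INS and MRPL23, and the deposited tables do not say which of them a probe detects.

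Markers of theca, granulosa and blood cells were set beside IGF2. The median log2 level of 6 theca markers at 14 months was 10.79 in heifer 2 and 9.56 to 10.78 in the others, and at 11 months 10.66, 11.21, 11.28 and 10.60 from heifer 1 to heifer 4. The 2 highest at 11 months belonged to heifers 2 and 3, where IGF2 was highest too. At 8 months the theca medians were 12.10, 10.36, 11.28 and 9.40, highest in heifer 1, while IGF2 was highest in heifer 2, at 12.20. STAR, a steroid synthesis gene on the theca list that granulosa cells can also express, had 8.60, 13.65, 11.61 and 9.91 at 11 months, again highest in heifers 2 and 3. At 14 months STAR had 10.87 in heifer 2 and 8.82 to 9.21 in the others, and at 8 months it was highest in heifer 1, at 12.39. STAR was singled out after its values were seen. Of the rest of the theca list at 11 months, COL1A1 and COL3A1 were lowest in heifer 2, at 8.97 and 11.40. COL3A1 and ACTA2 were highest in heifer 4, at 13.03 and 13.00. COL1A2 was highest in heifer 2, at 11.02, and INSL3 in heifer 3, at 8.13, with no value in heifer 4. CYP17A1, the theca enzyme that makes androgens, did not pass the filter. The median of 14 granulosa markers in heifer 2 was 9.09, 9.96 and 10.36 at 8, 11 and 14 months, the lowest of the 4 heifers at 8 and at 14 months. The median of 11 leukocyte markers in heifer 2 at 14 months was 11.32, against 8.96 to 9.43 in the others. The part of these cells in the IGF2 levels was not tested.

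IGF1R, the signalling receptor, did not pass in any comparison. Its ratios at 8 months were 0.55, -0.11, 1.47 and 0.19 (fitted change 0.52 ± 0.69; SD, n = 4; adjusted p = 0.449; 95% interval -0.38 to 1.42). At 11 months they were 0.61, 1.06, 0.68 and -1.34 (0.25 ± 1.08; adjusted p = 0.864). Heifer 4 at 11 months was the low value among otherwise higher ones. The change at 8 months was 0.02 without heifer 3, 1.41 when the 8-month arrays from heifers 1 and 2 were left out, and 1.54 under the epithelial covariates described further on, none of them past the threshold (adjusted p of 0.984, 0.182 and 0.183). With those arrays left out, the dye term rested on the 11-month arrays alone, and heifers 3 and 4 had 8-month ratios of 1.47 and 0.19.

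The binding proteins gave 1 measurable gene. IGFBP4, which the protease PAPPA cuts, had ratios of -0.12, -0.62, 0.38 and -0.14 at 8 months (fitted change -0.12 ± 0.41; SD, n = 4; adjusted p = 0.841; 95% interval -0.83 to 0.58). At 11 months the ratios were -0.21, -0.93, 0.68 and -1.45 (-0.48 ± 0.92; adjusted p = 0.675). Heifer 4 at 11 months was again the lowest. IGFBP5 was above background in 6 of 16 channels, among them 2 at 8 months, in heifers 1 and 2 with intensities of 617 and 819. Its highest value was 3325 in heifer 2 at 11 months, where the 14-month RNA gave 368, and this heifer also had the highest IGF2 level. IGFBP2, the neighbour of IGFBP5 in the genome, was above background in 5 of 16 channels, with no intensity over 413 in any of them. Neither gene was tested, and both stand as not well above background in most channels.

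AKT1, the isoform that is widely expressed, was close to background, above it in 12 of 16 channels. Its ratios were 0.23, -0.10, 0.63 and -0.27 at 8 months (fitted change 0.12 ± 0.40; SD, n = 4; adjusted p = 0.731) and -0.03, -0.51, 0.07 and -0.33 at 11 months (-0.20 ± 0.27; adjusted p = 0.766). The 95% interval at 8 months ran from -0.31 to 0.56. The heifers stood close together at 14 months, 0.18 apart on the log2 scale, at a signal near the limit of background.

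FOXO1, the transcription factor restrained by AKT, was bright and had ratios of 0.14, -1.59, 0.23 and 0.67 at 8 months (fitted change -0.14 ± 0.99; SD, n = 4; adjusted p = 0.848). Heifer 2 alone was low: its log2 level was 8.80 at 8 months, against 11.29 to 12.07 in the other heifers. At 11 months the ratios were 0.02, 0.76, 0.79 and -0.29 (0.32 ± 0.54; adjusted p = 0.800). Without heifer 2 the change at 8 months was 0.30 and did not pass either (adjusted p = 0.474).

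The lowest ratio of FOXO1, and of IGFBP4 and IGF1R, lay on the 2 arrays with the lowest granulosa markers. The second lowest IGFBP4 ratio, -0.93 in heifer 2 at 11 months, was on an array with a granulosa median of -0.18. Heifer 2 at 8 months had a median granulosa marker ratio of -0.73 and heifer 4 at 11 months one of -1.04, against -0.24 to 0.14 on the other 6 arrays. CYP19A1 had ratios of -1.88 and -3.13 on these 2 arrays, and FSHR of -1.24 and -2.01, though FSHR also had -1.60 in heifer 1 at 8 months. On the same 2 arrays FST had -1.29 and -1.67, INHBA -0.18 and -1.19, and INHA 0.02 and -0.80. FOXL2, dim on most channels, had 0.43 and -0.58. Both arrays were also the ones with the highest cilia medians, 3.75 and 3.26. The part of the cell make-up in these low values was not tested.

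**Figure D3:**
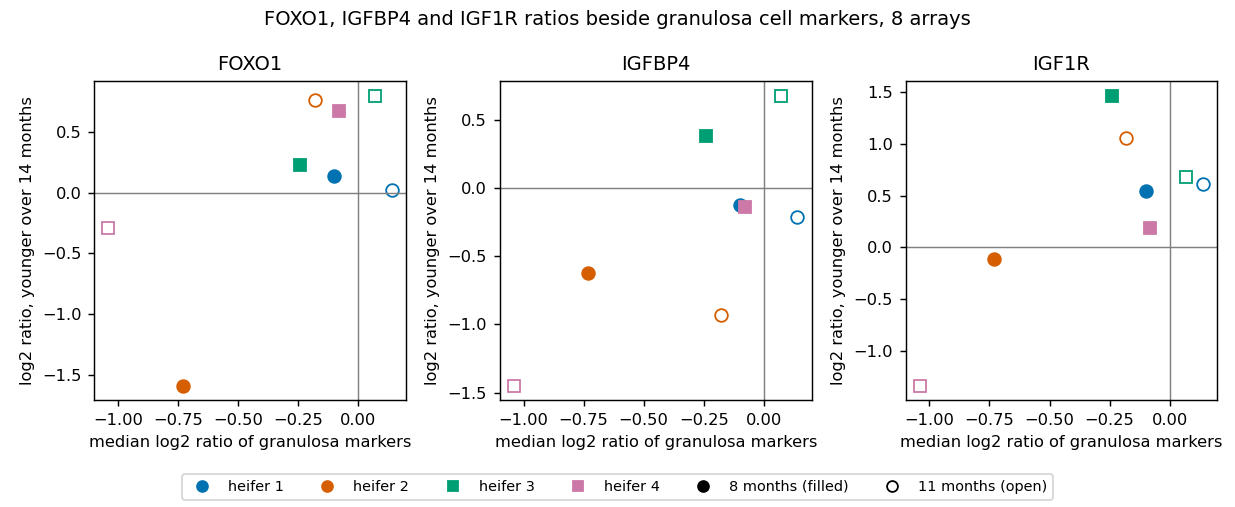
Log2 ratio (younger age over 14 months, y axis) of FOXO1, IGFBP4 and IGF1R against the median log2 ratio of 14 granulosa markers (x axis) on the 8 arrays. Filled symbols are 8 months, open symbols 11 months, circles heifers 1 and 2 and squares heifers 3 and 4. The arrays with marker medians of -0.73 (heifer 2, 8 months) and -1.04 (heifer 4, 11 months) hold the lowest FOXO1 ratio, -1.59, and the lowest IGFBP4 and IGF1R ratios, -1.45 and -1.34; an IGFBP4 ratio of -0.93 lies at a marker median of -0.18.

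The epithelial markers were set beside IGF2R and AKT2. The median of the general epithelium markers was above 0 in all 4 heifers at 8 months, as were IGF2R and AKT2, and at 11 months it was 0.20, -0.01, 0.33 and 2.24. At 8 months the squamous median was lowest in heifer 2, at 0.62, and IGF2R was lowest there too, at 1.88. At 11 months the squamous medians were 0.16, 0.12, 0.05 and 0.48, and IGF2R read 1.90 and 1.85 in heifers 1 and 2. AKT2 was highest in heifer 2 at 8 months, at 2.31. Cilia medians of -0.03 and 0.07 in heifers 3 and 4 at 8 months went with IGF2R ratios of 3.08 and 3.12 and AKT2 ratios of 1.63 and 1.68, and the cilia median of 3.26 in heifer 4 at 11 months with ratios of 0.44 and -1.08. High cilia medians of 2.88 and 3.75 in heifers 1 and 2 at 8 months and of 1.42 in heifer 1 at 11 months went with IGF2R ratios of 3.14, 1.88 and 1.90 and AKT2 ratios of 2.16, 2.31 and 1.99. Without the 8-month arrays of heifers 1 and 2, the ones high in cilia markers, the fitted changes were 3.81 for IGF2R (adjusted p = 0.00277) and 2.85 for AKT2 (adjusted p = 0.0234). The 8-month RNA was then in Cy3 only, so the dye term rested on the split of heifers at 11 months alone. Both values lie above the 8-month ratios of the remaining heifers 3 and 4, 3.08 and 3.12 for IGF2R and 1.63 and 1.68 for AKT2. They are therefore not read as larger rises. With both medians as covariates they were 2.34 and 2.72 and did not pass (adjusted p = 0.0881 for both), in a fit that called 1 probe of the whole array. The general epithelium markers were not among these covariates, and their part in the changes was not tested. These alternatives were chosen after the data were seen.

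**Figure D4:**
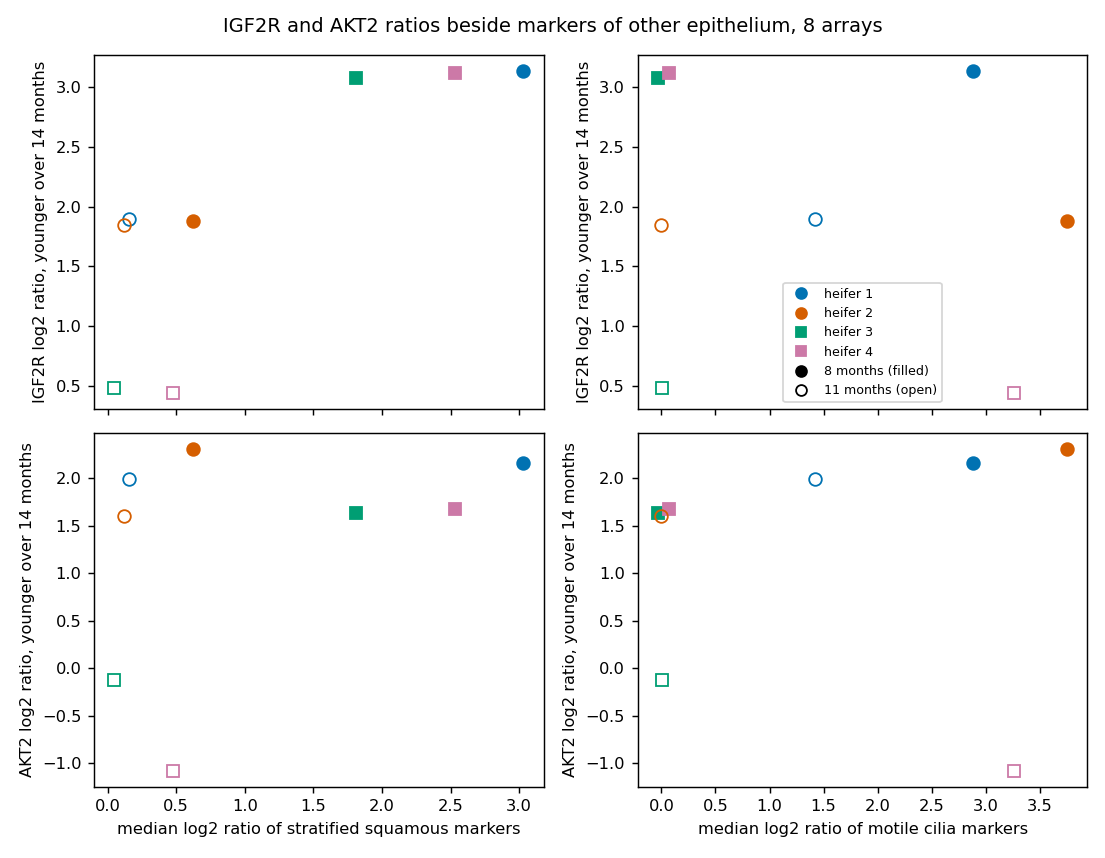
Log2 ratio of IGF2R (top) and AKT2 (bottom), younger age over 14 months, against the median log2 ratio of stratified squamous markers (left) and motile cilia markers (right) on the 8 arrays. Filled symbols are 8 months and open symbols 11 months, circles are heifers 1 and 2 and squares heifers 3 and 4. IGF2R ratios of 1.85 and 1.90 occur at squamous medians of 0.12 and 0.16, and ratios of 3.08 and 3.12 at cilia medians of -0.03 and 0.07.

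Around the 9 genes, 104 further genes of the pathway were listed, from ligands to FOXO targets. Of these, 94 had a probe and 62 passed the filter. At 8 against 14 months 1 of the 62 rose and 0 fell, beside 3.24% of all probes called as rises and 0.599% as falls. Their median log2 change was 0.16, and 21 of them, or 33.9%, had an unadjusted p under 0.05, beside 24.8% of all probes. At 11 against 14 months 0 were called by limma, the median was 0.07, and 5, or 8.06%, had an unadjusted p under 0.05. The number called at 8 months moved with the analysis, from 0 to 14 of these genes over the settings tried. Over the whole array it moved too, from 0 probes without heifer 3 to 3553 with array weights.

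The gene that rose was CTSD, cathepsin D, a lysosomal protease that is cargo of IGF2R and can cut IGF binding proteins. Its ratios were 2.82, 1.57, 0.24 and 2.02 at 8 months (fitted change 1.66 ± 1.08; SD, n = 4; 3.17-fold; adjusted p = 0.0311). At 11 months they were 2.26, 1.16, 0.18 and 0.73 (1.08 ± 0.88; adjusted p = 0.661). Heifer 3 was the lowest at both ages. With squamous and cilia medians as covariates the change at 8 months was 0.04 (SE 0.67, interval -1.49 to 1.57, adjusted p = 0.981). The SE in the main fit was 0.32, and the fit with covariates called 1 probe of the whole array. The cause of the lower value was not tested. Without heifer 1, heifer 3 or heifer 4 the CTSD change at 8 months was 1.37, 2.04 and 1.25, with an adjusted p of 0.0735, 0.167 and 0.153. The other lysosomal sorting genes did not pass: M6PR, the smaller mannose 6-phosphate receptor, was at 0.56 ± 0.70 (adjusted p = 0.312; other kept probes 0.24 and 0.16) and the adaptor GGA3 at 0.38 ± 0.64 (adjusted p = 0.225).

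Among ligands and receptors, INSR had ratios of 1.64, 0.90, 1.48 and 1.02 at 8 months (fitted change 1.26 ± 0.36; SD, n = 4; adjusted p = 0.113). At 11 months INSR gave 1.57 and 2.32 in heifers 1 and 2 and -0.31 and -1.15 in heifers 3 and 4, the same division of animals as IGF2R and AKT2. INSL3, a theca hormone, was at -0.12 ± 0.52 (adjusted p = 0.701). IGF1, INS and PAPPA were above background in 0 of 16 channels. H19, the transcript next to IGF2, had no probe with that symbol.

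Of the other binding proteins, IGFBP3, the main carrier of IGFs in blood, had ratios of 3.04, -0.12, 2.37 and 2.14 at 8 months (1.86 ± 1.37; adjusted p = 0.100), with heifer 2 apart. IGFBP6, which prefers IGF2, had 0.66 ± 0.59 (adjusted p = 0.223). STC1, stanniocalcin 1, an inhibitor of PAPPA, had 0.74 ± 1.84 (adjusted p = 0.512). The mRNA binding proteins IGF2BP2 and IGF2BP3 were at -0.15 and -0.13 (adjusted p of 0.590 and 0.705), with 0.18 for another kept IGF2BP3 probe.

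Of the listed adaptors, PI3-kinase genes and AKT regulators, none passed at 8 months. GRB14, an adaptor that inhibits the insulin receptor, had ratios of -0.93, -2.19, -1.22 and -1.11 (-1.36 ± 0.57; adjusted p = 0.0613), and GAB1 was at -0.58 (adjusted p = 0.261), with 0.10 for its other kept probe. INPP4B, a lipid phosphatase that opposes AKT, had -0.64, -1.34, -2.10 and -1.76 (-1.46 ± 0.63; adjusted p = 0.0919). PDPK1, the kinase that phosphorylates AKT, was at 0.73 ± 0.63 (adjusted p = 0.0835). RICTOR, a subunit of the mTOR complex that also phosphorylates AKT, had 0.61, 0.60, 0.62 and 0.64, the closest set of heifers among these genes (0.62 ± 0.02; adjusted p = 0.0697). PPP2CA, the catalytic subunit of a phosphatase that acts on AKT, was at 0.69 ± 0.35 (adjusted p = 0.0840).

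In the mTOR branch TSC2, a brake on mTOR that AKT releases, was at 0.84 ± 0.50 (adjusted p = 0.0594) and MTOR at -0.42 ± 0.13 (adjusted p = 0.162). Of other AKT substrates, CDKN1A was at -0.77 ± 0.72 (adjusted p = 0.234) and TBC1D1 at 0.80 ± 0.28 (adjusted p = 0.107), whose other kept probes read -0.07 and -0.24 (adjusted p of 0.854 and 0.467). Transcripts known as FOXO targets lay above 0 for 10 of 13 genes at 8 months and for 12 of 13 at 11 months, with medians of 0.58 and 0.54, beside 50.4% and 48.5% of all probes and medians of 0 and -0.01. None of the 13 passed by limma at either age. Before adjustment, 7 of the 13 fell below 0.05 at 8 months and 4 at 11 months, beside 24.8% and 7.5% of all probes. Whether the list exceeds these shares was not tested, and the counts are not independent, because both ages share the 14-month RNA. TXNIP, an inhibitor of glucose uptake, had ratios of 0.99, 3.14, 0.78 and 0.74 at 8 months (1.41 ± 1.16; adjusted p = 0.0611) and of 1.03, 0.80, 0.80 and 1.12 at 11 months (0.94 ± 0.16; adjusted p = 0.661). Its other kept probes read 0.35 and 0.57 at 8 months (adjusted p of 0.460 and 0.203). CCNG2 was at -0.56 ± 0.25 at 8 months (adjusted p = 0.0816).

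**Figure D5:**
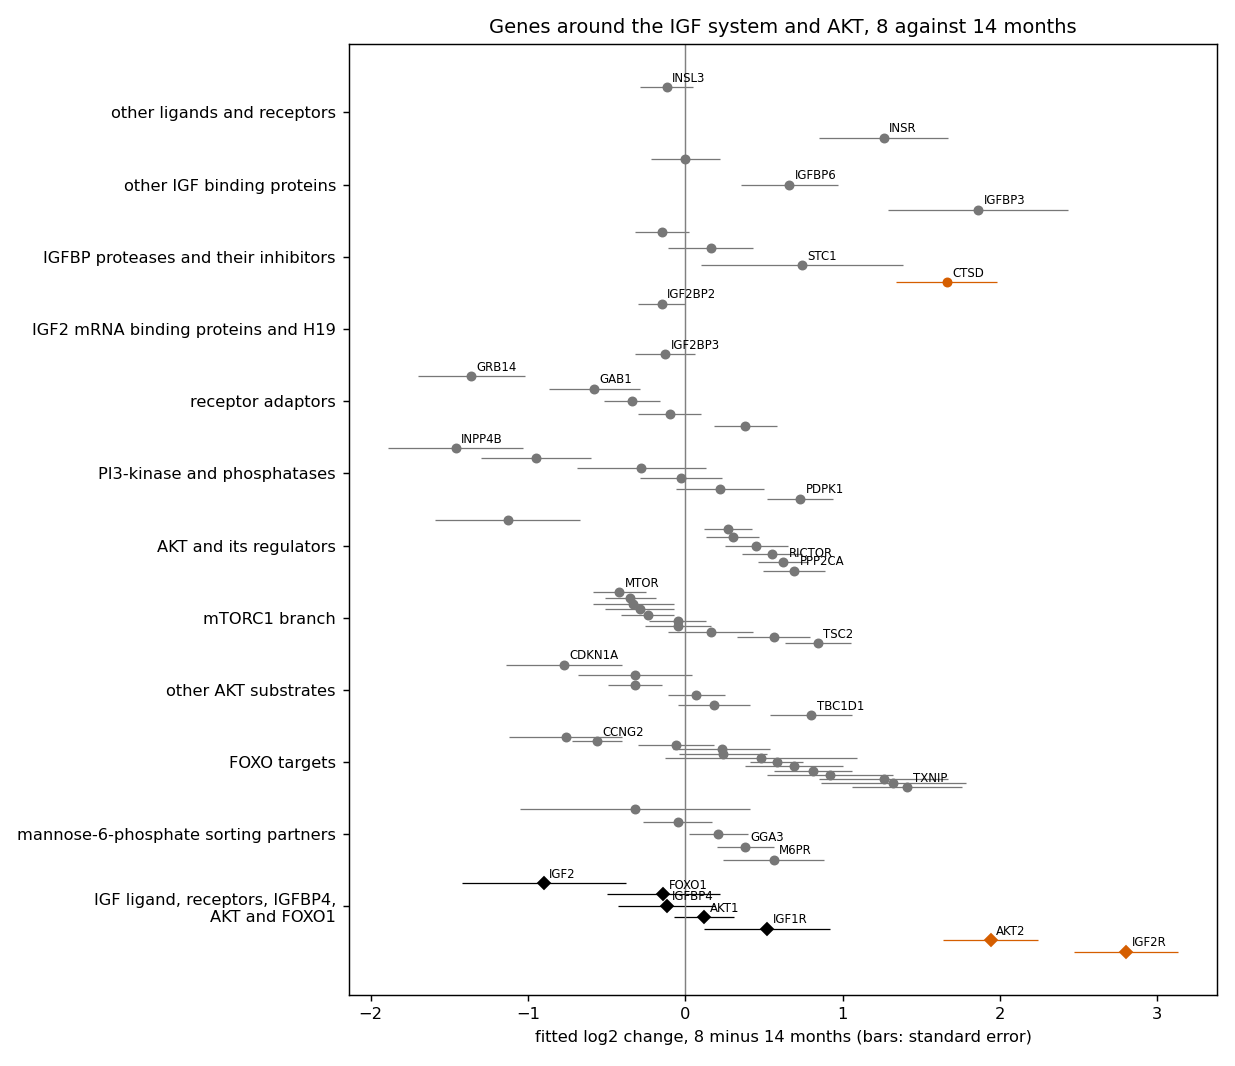
Fitted log2 change, 8 minus 14 months (x axis, bars are standard errors), of the 62 further pathway genes by list and of the 7 members with a kept probe (diamonds, bottom row); a gene on 2 lists is drawn on both. Orange marks an adjusted p under 0.05: CTSD at 1.66, AKT2 at 1.94 and IGF2R at 2.80.

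Over the 8 arrays, the log2 ratios of 10136 other genes were correlated with each member's, as a description over arrays that share animals and 14-month RNA. Those nearest to IGF2R were PTGES2, NACC1 and PTPRA, with r of 0.980, 0.945 and 0.940. Nearest to AKT2 were ATP6V0C, a subunit of the vacuolar proton pump, LAPTM4A, a lysosomal membrane protein, and KIF2C, a mitotic kinesin, with r of 0.995, 0.989 and 0.974. ADAM17, EIF2B2 and BCCIP were nearest to IGF2, with r of 0.962, 0.951 and 0.950. FABP3, SCAMP5 and LOC785693 were nearest to FOXO1, with r of 0.975, 0.975 and 0.961. For IGF1R, IGFBP4 and AKT1 the nearest were WDR82, LOC783612 and STK4, with r of 0.958, 0.946 and 0.943.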

How the data were processed

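The deposited scanner tables give, per the file headers, unnormalized pixel intensity (median and mean) of spot and local background in both channels. The authors' deposited log2 ratios followed Cy5 over Cy3 of these intensities after background subtraction and loess (correlation over probes at least 0.9995, column medians from -0.0207 to 0.000832). Software: not given in the sources used here.

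Intensities were processed with limma 3.58.1 in R 4.3.3: normexp with an offset of 50, loess within arrays, control and ignored spots given weight 0. Ratios were turned to younger over 14 months. Levels per channel were taken after scaling of brightness between arrays, and set no probe against another. Probes stayed in if they exceeded the mean of 153 negative controls plus 2 SD in 3 or more of the 4 heifers at any age. The model held terms for 8 and 11 months and a dye term, with the heifer as a random block (correlation 0.159; residual degrees of freedom 5, prior 3.71). Benjamini-Hochberg adjustment ran over 22692 probes with a threshold of 0.05. Precision is low with so few arrays. The p-values rest on the residual spread after the dye term, pooled over both comparisons and moderated by the prior. Dye orientation is tied to the animal. A difference between animals of opposite orientation that both comparisons share is therefore taken out of the residual spread. For AKT2 the SE was 0.30 in both comparisons, whereas the SD over heifers was 0.34 at 8 months and 1.45 at 11 months. Both comparisons use the same animals, per the labels, and deviations of a heifer's arrays correlated at 0.379, 0.277, 0.447 and -0.11. The fitting was tested on simulated data.

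Symbols came from the platform annotation and were updated through the bovine RefSeq table (ARS-UCD2.0), which 21549 of 21790 probes with a symbol matched. Members and lists were chosen with earlier results of these data known. Named pathway genes were those past the threshold, and otherwise the 2 with the smallest p of each list at 8 against 14 months; marker genes and INSR at 11 months were named after their values were seen, and where a gene had several kept probes the brightest stood for it.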

Additional observations from a re-analysis of the deposited data

Results flagged for a closer look

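The log2 ratio of IGF2R at 8 against 14 months was 1.88 in heifer 2, and the other heifers lay between 3.08 and 3.14. The gap to the nearest other heifer took up 0.955 of the whole range, above Dixon's 95% critical value for 4 samples. Values of 7 probes in both comparisons, 14 groups in all, were looked at in this way, and chance marks about 1 in 20 groups. Without heifer 2 the fitted change was 3.24 (adjusted p from limma 0.00447).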

How the results depend on the processing

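IGF2R and AKT2 at 8 against 14 months kept their direction in 18 of 18 alternative settings and passed in 15. Their changes ranged from 2.34 to 3.81 and from 1.76 to 2.85. The highest values, 3.81 and 2.85, came without the 8-month arrays of heifers 1 and 2, where the dye term rested on the 11-month arrays alone. The count of members called fell from 2 to 0 without heifer 3, without heifer 4 and with the epithelial covariates, and it stayed at 2 without the replicate block (adjusted p of 0.0071 for IGF2R and 0.0133 for AKT2), which changed no other member's call. Members called at 11 against 14 months and at 8 against 11 months stayed at 0 in every setting run. The count of other pathway genes called at 8 months, 1 in the report, was 5 with median normalization, 3 with mean pixel intensity, 3 with the strict filter, 8 with a dye term for each comparison, 14 with array weights, 10 with the other comparison's arrays left out, and 0 to 9 when a heifer was left out. It was 4 once the 8-month arrays high in cilia markers (heifers 1 and 2) were dropped, 3 once the 11-month ones (heifers 1 and 4) were, and 0 with the covariates. The probes called over the whole array ran from 0 to 3553. Uncalled values changed sign in 15 cases. With a heifer left out, values at 8 against 14 months ran from -0.08 to 0.33 for AKT1, from -0.36 to 0.30 for FOXO1 and from -0.35 to 0.05 for IGFBP4. At 11 against 14 months they ran from -0.07 to 0.87 for IGF1R and from -0.92 to 0.01 for IGFBP4, and at 8 against 11 months from -0.93 to 0.17 for FOXO1 and from -0.15 to 0.76 for IGF1R. With the 8-month arrays dropped, FOXO1 was 0.52 and IGFBP4 0.03 at 8 against 14 months, and FOXO1 0.19 at 8 against 11 months, and with the 11-month ones dropped IGF1R was -0.35 there. IGFBP4 was 0.03 with median normalization and 0.40 with the covariates at 8 months, and -0.05 with array weights at 8 against 11 months. The causes were not tested. AKT1 had no value under the strict filter, and IGFBP2, IGFBP5 and the spare IGF2 and AKT2 probes are limited by signal over background. The settings that drop chosen arrays or add covariates were chosen after seeing the data.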

Other observations

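Among the FOXO targets, 3 genes outside the naming rule, picked after their values were seen, lay above 0 in 4 of 4 heifers at both ages. Of all probes, 15.7% did so at 8 months and 6.35% at 11 months, and the share that did so at both ages was not counted. PDK4, a kinase that restrains glucose oxidation, had a log2 change of 0.81 ± 0.67 at 8 months and of 0.87 ± 0.47 at 11 months (SD, n = 4; adjusted p from limma 0.0997 and 0.661). GADD45A, a growth arrest gene that DNA damage also induces, had 0.92 ± 0.60 and 1.41 ± 1.09 (adjusted p of 0.193 and 0.661). KLF6, an early response transcription factor, had 0.69 ± 0.65 and 0.81 ± 0.81 (adjusted p of 0.206 and 0.661). None of the 3 passed the test at either age, and other probes of PDK4 and GADD45A read 0.36 and 0.37 at 8 months. Both ages share the 14-month RNA of each heifer.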
